A study of Mus musculus with 8 samples.

Results

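The response of parental PyMT-1099 cells to TGF-β was measured by comparing the raw gene counts of the 2 TGF-β treated libraries with those of the 2 untreated libraries, 4 of the 8 libraries of the series. All 14641 of 55450 gene identifiers that passed a filter on low counts were tested. PyMT-1099 is a mouse breast cancer line, named for the polyoma middle T antigen, the oncogene of the PyMT mammary tumour model. Treated cells received TGF-β at 2 ng/ml for 10 days, untreated cells did not, and all cells grew in high glucose DMEM with fetal bovine serum, which itself can carry TGF-β. Libraries were made from polyadenylated RNA with the KAPA mRNA HyperPrep kit. The other 4 libraries are Agps knockout cells of the same line, untreated and treated in the same way, and enter the comparison of the lines near the end. Whether the 2 libraries of a group stem from different cultures is not stated, so the p-values reflect the spread of these particular libraries, and that spread may be technical.

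TGF-β is a secreted cytokine that binds a pair of serine/threonine kinase receptors, TGFBR2 and TGFBR1. The receptors phosphorylate SMAD2 and SMAD3, which join SMAD4 and act on genes in the nucleus. In mammary epithelial cells long exposure is known for driving epithelial to mesenchymal transition, in which cells lose junctions and apical polarity and gain a contractile cytoskeleton and secreted matrix. It is also known to slow the division of epithelial cells.

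The parental libraries held 17007268 to 19282972 counts, and 21707 to 23533 identifiers had a count. Mitochondrial genes took 3.37% and 2.37% of the counts in the untreated libraries and 4.31% and 3.80% in the treated ones, and the part of this in the results was not tested. Genes that the test called at least 2-fold higher took 3.32% to 3.34% of the counts of untreated libraries and 11% to 11.1% of those of treated libraries. Genes called at least 2-fold lower took 11.7% and 13.4% of the untreated counts and 3.63% and 3.85% of the treated counts. The untreated libraries differed from each other more than the treated ones did, with a chi-square per degree of freedom of 18.5 against 4.58 over the counts of a pair. In bulk RNA, fewer cells of a type and less RNA per cell cannot be told apart, and this holds for every level below.

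The label of breast was set against mammary genes. Keratin genes of simple epithelium were abundant in untreated libraries, with Krt8 at 1249 and 1035 CPM (counts scaled to library size), and Cdh1, which encodes E-cadherin, was at 582 and 702 CPM. Of the genes listed here as mammary, Krt18, like Krt8 a keratin gene, was at 2742 and 2441 CPM in untreated libraries. Cd24a had 10760 to 16831 counts and Mfge8 2638 to 5347 in the 4 libraries. Krt19 had 6228 to 34571 counts and Muc1 328 to 2945. Stat5b had 458 to 642 counts, Areg 521 to 857 and Wnt4 152 to 538. Whether any of these genes is specific to mammary cells was not tested. Several other genes listed as mammary were at or near 0, as follows. Epcam, Foxa1, Esr1, Pgr, Tbx3, Csn2 and Wap had 0 counts in all 4 libraries, and Elf5, Prlr, Trp63 and Csn3 had at most 2 in any. Gata3 had 9 to 29 counts. Genes known from kidney, reproductive tract and gut epithelia, looked up after their values were seen, were well above that. Pax2 went from 429.9 and 378 to 241 and 240.1 CPM, Hnf4a from 204 and 169 to 30.4 and 40.3 CPM, and the cadherin gene Cdh16 from 374 and 357 to 192 and 181 CPM. Pax8 went from 35 and 28.6 to 5.19 and 4.41 CPM. All 4 were called lower with TGF-β, while the kidney genes Umod, Slc34a1, Six2 and Nphs1 had 0 counts in these libraries. What these levels say of the origin of the cells was not tested.

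TGF-β changed the RNA of the cells on a wide front. At an adjusted p under 0.05 in edgeR's quasi-likelihood test, 6228 genes (42.5% of those tested) were called, of which 3119 (21.3%) were higher and 3109 (21.2%) lower. Of these, 2688 (18.4%) differed by at least 1 on the log2 scale. Large changes were more often rises: 268 genes were called at least 32-fold higher and 141 at least 32-fold lower. The median log2 fold change of all genes was 0.01, a value that the scaling itself sets near 0, and under upper quartile scaling it was 0.05 with 54.9% of calls higher. The share called rose with level, from 28.7% of genes with an average log2 CPM under 0 to 52.0% of those over 6. Long noncoding RNA genes were called higher in 284 of 951 cases and lower in 115, with a median log2 fold change of 0.42, while protein coding genes had a median near 0. The groups did not overlap in 72.1% of all genes tested, so the lack of overlap by itself says little about a gene.

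**Figure D1:**
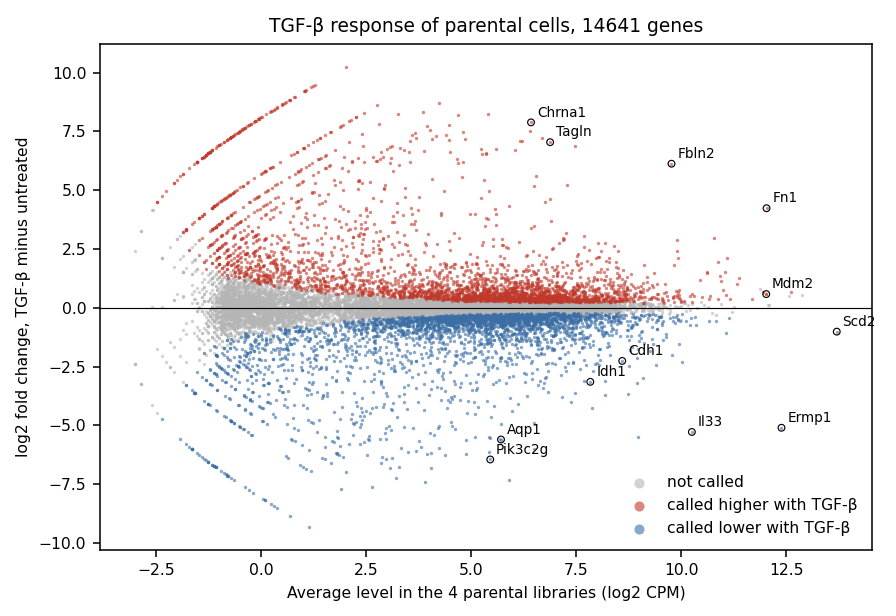
Log2 fold change with TGF-β (y axis) against the average level over the 4 parental libraries in log2 CPM (x axis) for the 14641 genes tested, red where called higher, blue where called lower and grey where not called. Ermp1 and Il33, at -5.10 and -5.28, lie far below other genes of similar abundance. The diagonal lines of points at low levels are genes with a few counts or none in a group, whose fitted fold changes are not bounds.

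With an average log2 CPM of 3 or more required, the largest rises were in genes that untreated cells barely transcribed. Chrna1, the alpha subunit of the muscle acetylcholine receptor (ENSMUSG00000027107, GRCm38 chromosome 2, 73563215 to 73580338), went from 0.738 and 0.703 to 181 and 162 CPM (log2 fold change 7.88, standard error 0.19, adjusted p = 2.62e-10). Pdgfrb, the receptor for PDGF-BB on mesenchymal cells, went from 0.211 and 0.351 to 89 and 80.1 CPM, and Cmah, a sialic acid hydroxylase, from 1.16 and 0.644 to 169 and 169 CPM. Both libraries of each group lay close together, and the treated level exceeded the untreated one more than 100-fold in each of these 3 genes. Trarg1, a regulator of glucose transporter traffic, went from 0.422 and 0.176 to 56.2 and 55.2 CPM, and Tmem119, known as a microglial and osteoblast gene, from 0.211 and 0.293 to 44.5 and 39.6 CPM. Myl7, the atrial myosin light chain, went from 0.105 and 0.176 to 25.1 and 22.5 CPM. Lsp1, a leukocyte actin binding protein, was at 0 and 0.351 CPM without and at 53 and 49 CPM with TGF-β. Another 7 of the 15 largest rises were Ces1g, Ccn5, Fbn1, Pde8a, Lce1g, AC161119.1 and 2010300F17Rik, at treated levels of 23.8 to 45.2 CPM. Of the bases of Fbn1, 20.1% overlap a gene on the opposite strand, and 17.2% of the 50-base words of Lce1g occur in other genes.

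The largest falls took genes from clear expression to almost none. Pik3c2g, a class II phosphoinositide kinase (ENSMUSG00000030228, GRCm38 chromosome 6, 139587221 to 139969284), went from 82.6 and 90.9 to 0.742 and 1.25 CPM (log2 fold change -6.45, standard error 0.19, adjusted p = 1.11e-09). Adora1, an adenosine receptor, went from 67 and 104 to 1.06 and 1.37 CPM (20.1% opposite-strand overlap). Tmigd1, an adhesion protein of brush border epithelia, went from 42.8 and 39.1 to 0.371 and 0.715 CPM. All 3 were below 2 CPM in both treated libraries. Cyp2c65 and Cyp4a12a, cytochrome P450 genes, went from 60.0 and 56.6 to 0.424 and 1.19 CPM and from 27.7 and 37.7 to 0.318 and 0.596 CPM, and each shares sequence with close relatives (20.5% and 48.8% of 50-base words). Clic5, which links membranes to actin in microvilli, went from 21 and 23 to 0.371 and 0.238 CPM, and the kinesin gene Kif12 from 26.4 and 24 to 0.318 and 0.417 CPM. The mucin gene Muc5b went from 12.9 and 21.3 to 0.159 and 0.238 CPM, and the amine oxidase gene Aoc1 from 16.8 and 16.2 to 0.159 and 0.119 CPM. A further 5 of the 15 largest falls were Crisp1, Meox2, Arhgap32, Serpina1d and Slc16a12, all under 0.6 CPM in both treated libraries. Of the 50-base words of Serpina1d, 50.9% occur in other genes.

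**Figure D2:**
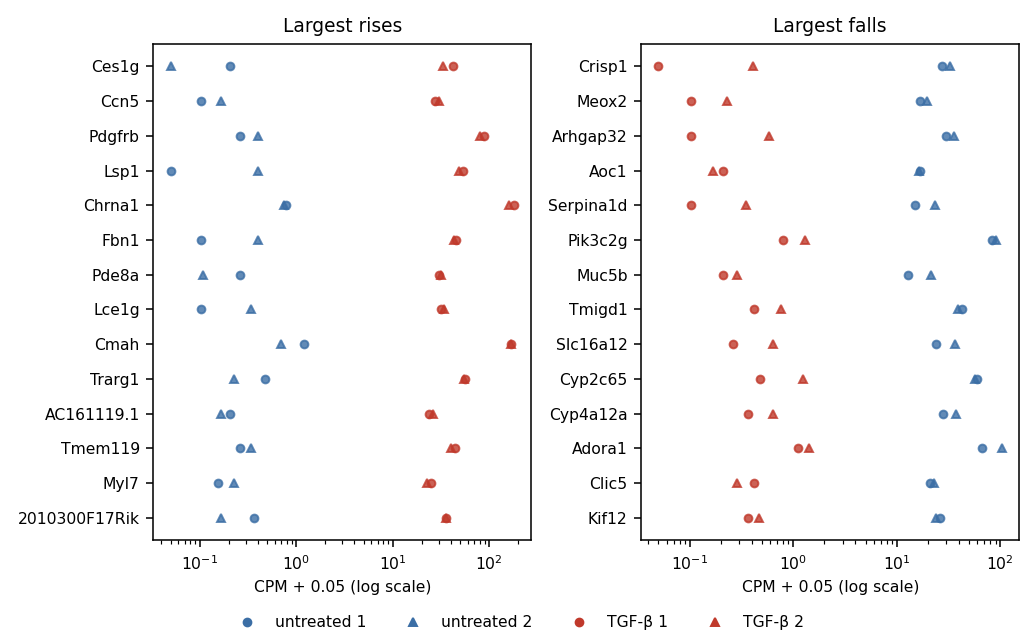
Level in each parental library (x axis, CPM + 0.05, log scale) of 14 of the 15 genes with the largest rises (left) and 14 of the 15 with the largest falls (right), blue for untreated and red for TGF-β, circles for replicate 1 and triangles for replicate 2. In every row the blue and red points are parted by a wide gap, as the rule that chose the genes required of them.

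A single transcript stood out among the abundant genes. Ermp1, which encodes a metallopeptidase of the endoplasmic reticulum (ENSMUSG00000046324, GRCm38 chromosome 19, 29608214 to 29648415), took 9938 and 10918 CPM in the untreated libraries and 303 CPM on average in the treated ones (log2 fold change -5.10, standard error 0.14, adjusted p = 7.98e-10). About 1 count in 100 of the untreated libraries thus came from Ermp1. Il33, an alarmin cytokine of epithelial nuclei (ENSMUSG00000024810, GRCm38 chromosome 19, 29925114 to 29960718), went from 1972 and 2799 to 50.3 and 72.4 CPM. Both genes lie on chromosome 19, and neither group overlapped the other for either gene. Scd2, a stearoyl-CoA desaturase and the most abundant of the fatty acid genes, went from 15252 and 20503 to 8436 and 9224 CPM (log2 fold change -1.02, standard error 0.15, adjusted p = 0.000242). Mdm2, the ubiquitin ligase of p53, rose from 3322 and 3369 to 5045 and 4949 CPM, and Hsp90ab1, a chaperone, was at 4209 and 4534 CPM on average and was not called (adjusted p = 0.394). Fn1, which encodes fibronectin, rose from 386 and 463 to 8093 and 7829.9 CPM. The cytoskeletal actin gene Actb rose by 0.58 on the log2 scale. Gapdh was not called, at 10.2 and 9.53 CPM, but 47.8% of its 50-base words occur elsewhere in the transcriptome, so its counts are uncertain.

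Genes of the TGF-β pathway itself moved in both directions. Of the ligands, receptors and SMADs, 13 of 26 tested members rose and 5 fell, with a median log2 fold change of 0.66. Tgfbr2, the receptor that binds the ligand first (ENSMUSG00000032440, GRCm38 chromosome 9, 116084293 to 116175360), fell from 364 and 329 to 128 and 136 CPM (log2 fold change -1.40, standard error 0.09, adjusted p = 1.74e-07), while Tgfbr1 rose by 0.41 on the log2 scale. Lrrc32, which tethers latent TGF-β to the cell surface, rose from 0.949 and 0.82 to 90.1 and 102 CPM. Ltbp1 and Ltbp3, which hold latent TGF-β in the matrix, rose from 8.43 and 7.91 to 299 and 308 CPM and from 138 and 162 to 336 and 327 CPM. So did Acvr1, a type I receptor shared with BMPs, from 67.2 and 72.8 to 196 and 191 CPM. The type I activin receptor gene Acvr1b fell from 17.1 and 20.2 to 8.06 and 8.22 CPM. The signal transducers Smad3 and Smad4 were at 136 to 117 and 129 to 119 CPM and were not called (adjusted p = 0.0584 and 0.236). The number of fallen members was 3, not 5, when untreated library 2 or either treated library was left out.

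Among feedback inhibitors, 9 of 13 tested members rose and 0 fell, with a median log2 fold change of 0.98. Pmepa1, which captures SMADs at the membrane, rose from 102 and 85.6 to 582 and 587 CPM (log2 fold change 2.64, standard error 0.15, adjusted p = 7.31e-08). Ldlrad4, of the same family, rose from 4.95 and 4.8 to 28.7 and 34.7 CPM, with 52.1% of its bases under a gene on the other strand. Fst and Fstl3, which trap activins, rose from 7.22 and 6.85 to 39.1 and 37.7 CPM and from 5.38 and 3.98 to 24 and 25.1 CPM (47.3% opposite-strand overlap for Fstl3). The SMAD co-repressors Ski and Skil rose by 1.08 and 0.98 on the log2 scale. Smad7, the inhibitory SMAD, stood at 163 and 32.2 CPM in the untreated libraries and at 160 and 118 CPM in the treated ones and was not called (the untreated libraries differed from each other by more than the groups did). Of direct targets, 12 of 21 tested members rose and 5 fell, with a median log2 fold change of 1.65. Inhba, the activin A subunit, rose from 2.74 and 5.56 to 67 and 61.5 CPM (log2 fold change 3.96, standard error 0.25, adjusted p = 2.35e-07), and the PDGF genes Pdgfa and Pdgfb from 38.9 and 34.4 to 205 and 209 CPM and from 156 and 108 to 428 and 399 CPM. Id2, an inhibitor of helix-loop-helix factors, fell from 351 and 317 to 109 and 117 CPM. Id1 went from 99.976 and 48.9 to 35.2 and 27 CPM, a log2 fold change of -1.26 that became -0.66 without untreated library 1. The direct targets that fell numbered 3 without untreated library 1 and 3 without treated library 2, against 5 with all libraries.

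Most transcription factors of the transition rose, and most of those of epithelial identity fell. Of the first, 12 of 17 tested members rose and 1 fell, with a median log2 fold change of 0.76. Zeb2, a repressor of epithelial genes, rose from 5.22 and 6.09 to 112 and 115 CPM (log2 fold change 4.33, standard error 0.17, adjusted p = 6.43e-09), and its relative Zeb1 from 39.5 and 41.9 to 107 and 109 CPM. Hmga2, a chromatin factor downstream of SMADs, rose from 16.9 and 16.1 to 100 and 96.2 CPM, and Runx1 and Runx2 from 57.5 and 49.966 to 169 and 162 CPM and from 32.5 and 40.9 to 92.3 and 88.9 CPM. Sox4 rose from 439 and 428 to 746 and 719 CPM (54.6% opposite-strand overlap). Snai1 had 1.90 and 0.527 CPM without and 9.22 and 9.65 CPM with TGF-β, while Snai2, Twist1, Twist2 and Prrx1 had 0 counts in all 4 libraries. Of the epithelial factors, 1 of 14 tested members rose and 9 fell, with a median log2 fold change of -0.78. Ehf, an ETS factor, fell from 120.2 and 149 to 18.4 and 20.9 CPM (log2 fold change -2.78, standard error 0.14, adjusted p = 4.12e-08), and the RNA binding protein gene Rbm47 from 184 and 193 to 35.6 and 38.5 CPM. Klf5 fell from 134 and 150.19 to 63.6 and 63.7 CPM, Esrp2, an epithelial splicing factor, from 64.6 and 49 to 30.6 and 32.4 CPM, and Grhl1 from 11 and 7.56 to 3.92 and 2.74 CPM. Esrp1, Ovol1 and Ovol2, other well-known epithelial regulators, had 0 counts with and without TGF-β. Elf3 was not called at 23.9 and 21.9 CPM (adjusted p = 0.59).

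Junction genes split, and genes of apical polarity mostly fell. Of adherens and tight junction genes, 10 of 25 tested members rose and 9 fell, with a median log2 fold change of 0.02. Ocln, which encodes the tight junction protein occludin, fell from 16.9 and 19.3 to 1.27 and 1.37 CPM (log2 fold change -3.77, standard error 0.19, adjusted p = 3.65e-08), and its relative Marveld2 from 11.1 and 12.1 to 0.901 and 1.01 CPM. Patj, a scaffold of the Crumbs complex, fell from 76.6 and 77 to 20.2 and 19.8 CPM. The catenin gene Ctnna1 was not called at 705 and 723 CPM, nor was Cldn12 at 866 and 837 CPM (adjusted p = 0.742 and 0.714). Against this, Nectin4 rose from 0.158 and 0.293 to 5.62 and 5 CPM. Cldn4 also rose, from 0.738 and 0.117 to 15 and 14.5 CPM, a log2 fold change of 5.04 that lay between 4.30 and 6.89 when single untreated libraries were left out. Of desmosome and hemidesmosome genes, 6 of 15 tested members rose and 6 fell, with a median log2 fold change of 0.27. Ppl, the desmosomal linker periplakin, fell from 432 and 391 to 53.5 and 73.2 CPM (log2 fold change -2.70, standard error 0.13, adjusted p = 3.36e-08), the desmosomal cadherin gene Dsg2 from 178 and 211 to 51.9 and 62.3 CPM, and the hemidesmosomal integrin gene Itgb4 from 143 and 147 to 67.4 and 70.8 CPM. The plakophilin gene Pkp1 rose from 0.158 and 0.293 to 23.4 and 22 CPM, and Pkp2 from 79.8 and 76.7 to 150.19 and 153 CPM.

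Of polarity and apical trafficking genes, 4 of 18 tested members rose and 13 fell, with a median log2 fold change of -0.81. Muc1, the apical transmembrane mucin, fell from 155 and 158 to 19.1 and 19.5 CPM (log2 fold change -3.02, standard error 0.10, adjusted p = 1.81e-09). Llgl2, a basolateral polarity protein, fell from 157 and 159 to 50.2 and 47 CPM, the recycling motor gene Myo5b from 38.6 and 49.3 to 8.96 and 10.4 CPM, and the protease inhibitor gene Spint2 from 143 and 177 to 42.5 and 40.8 CPM. The paralogue Llgl1 and the kinase gene Prkci rose by 0.69 and 0.67 on the log2 scale. Llgl1 and Llgl2, 2 genes of the same family, therefore moved in opposite directions. Of the keratins, 6 of 13 tested members rose and 7 fell, with a median log2 fold change of -0.43. Krt19 fell from 1822 and 1625 to 330.1 and 374 CPM (log2 fold change -2.29, standard error 0.12, adjusted p = 4.24e-08), Krt8 from 1249 and 1035 to 782 and 844 CPM (27.2% shared 50-base words), and Krt5, a basal keratin, from 5.22 and 5.45 to 0.318 and 0.536 CPM. Krt7 and Krt80 rose from 117 and 123 to 238 and 254 CPM and from 49.4 and 31.7 to 122 and 120.1 CPM, and Krt14, the usual partner of Krt5, rose from 0.369 and 0.351 to 5.19 and 5 CPM. The partners Krt5 and Krt14 thus moved apart, at low levels of both.

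The promoters of Krt5 and Muc1 are shown because both genes fell and both hold the E-box hexamer CACCTG, which ZEB and SNAIL repressors bind. The sequences are the 250 bases before the RefSeq start (GRCm38.p6), read 5′ to 3′ on the strand of the gene, with the hexamer on either strand in capitals. Krt5 is at chr15:101712906-101713155 on the minus strand with 1 hexamer, and Muc1 at chr3:89228806-89229055 on the plus strand with 2.
Krt5: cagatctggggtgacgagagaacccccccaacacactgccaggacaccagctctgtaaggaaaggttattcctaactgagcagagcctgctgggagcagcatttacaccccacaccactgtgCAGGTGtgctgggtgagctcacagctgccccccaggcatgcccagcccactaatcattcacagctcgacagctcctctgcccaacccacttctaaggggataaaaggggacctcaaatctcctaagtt
Muc1: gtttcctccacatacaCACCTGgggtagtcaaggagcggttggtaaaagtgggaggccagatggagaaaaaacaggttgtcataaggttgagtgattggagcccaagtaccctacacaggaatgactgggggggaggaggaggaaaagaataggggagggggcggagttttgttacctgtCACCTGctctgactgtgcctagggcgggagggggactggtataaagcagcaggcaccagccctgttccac
A match of letters is a description and not evidence of binding. Among the 9950 tested genes with such a sequence, 14.9% held CACCTG on either strand. The share was 23.6% of the 462 genes lower by at least 2 on the log2 scale and 17.4% of the 506 higher by at least 2. The RefSeq table used here has no entry for Cdh1.

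Cell surface genes turned over as well. Of mesenchymal cadherins and adhesion molecules, 10 of 15 tested members rose and 3 fell, with a median log2 fold change of 0.94. Cdh2, which encodes N-cadherin, rose from 165 and 158 to 519 and 563 CPM (log2 fold change 1.74, standard error 0.09, adjusted p = 6.35e-08). Cdh5, the cadherin best known from endothelium, rose from 0.843 and 0.761 to 75.6 and 75.6 CPM, and Mcam, an adhesion molecule of pericytes and melanoma cells, from 0.791 and 0.879 to 85.5 and 76.3 CPM. Ncam1, the neural cell adhesion molecule, rose from 76.5 and 99.8 to 346 and 348 CPM, and the intermediate filament gene Vim from 1321 and 1161 to 2719.6 and 2686 CPM. Alcam and Vcam1 went the other way, from 221 and 319 to 17.2 and 22.3 CPM (log2 fold change -3.78, standard error 0.22, adjusted p = 1.09e-07) and from 13.8 and 14.3 to 2.91 and 3.22 CPM. Of the integrins, 9 of 16 tested members rose and 4 fell, with a median log2 fold change of 0.92. Itga5, the alpha chain of the fibronectin receptor (ENSMUSG00000000555, GRCm38 chromosome 15, 103344286 to 103366763), rose from 16.1 and 18.5 to 241 and 204 CPM (log2 fold change 3.69, standard error 0.12, adjusted p = 1.81e-09), and its partner Itgb1 from 1078 and 1109 to 3134 and 3076 CPM. Itgb3 and Itgb5, chains of receptors for vitronectin, rose from 32.5 and 36.4 to 274 and 256 CPM and from 91.2 and 97.6 to 284 and 282 CPM. Itga1, a collagen receptor chain, fell from 130.3 and 155 to 27.2 and 29 CPM, with 11.7% of its 50-base words shared. Itga3, of a laminin receptor, was not called at 679 and 608 CPM (adjusted p = 0.146). The integrins that fell numbered 2, not 4, without treated library 1.

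Collagen genes rose almost without exception. Of fibrillar and other collagens, 14 of 15 tested members rose and 0 fell, with a median log2 fold change of 5.98, or 4.95 when the 2 genes with 0 counts in a group are set to the bound that 3 counts allow. Most of these genes were almost silent without TGF-β. Col7a1, of anchoring fibrils, rose from 3.21 and 2.81 to 399 and 311 CPM (log2 fold change 6.87, standard error 0.23, adjusted p = 1.85e-09), and Col1a1, of type I collagen, from 1.2649 and 1.23 to 137 and 125 CPM. Col6a1 and Col6a3, of beaded filaments, rose from 2.48 and 2.81 to 75 and 90.4 CPM and from 0.527 and 0.703 to 42.2 and 57.7 CPM, and Col27a1 from 48.6 and 45.4 to 178 and 163 CPM. Col1a2, the partner chain of Col1a1 in type I collagen, had 0 counts in both untreated libraries and 2.7 and 2.56 CPM with TGF-β, far below Col1a1 on this scale, which is not per length. Of genes that process collagen, 19 of 24 tested members rose and 2 fell, with a median log2 fold change of 0.92. Plod2, a lysyl hydroxylase, rose from 43.5 and 46.6 to 356 and 379.9 CPM (log2 fold change 3.03, standard error 0.14, adjusted p = 2.1e-08), Bmp1, a procollagen proteinase, from 32.1 and 28.6 to 285 and 266 CPM, and Loxl1, a lysyl oxidase, from 0.211 and 0.176 to 18.2 and 15 CPM. Serpinh1, the collagen chaperone, was called higher at a low level, 0.105 and 0.0586 CPM without and 0.689 and 0.953 CPM with TGF-β. Ppib and Pcolce were not called (adjusted p = 0.957 and 0.437). The 2 processing genes called lower were P3h4 and Loxl2, and both calls were lost without untreated library 2 and without treated library 1. The call of P3h4 was also lost without treated library 2, where its log2 fold change was -0.27 against -0.31. Of the 50-base words of Loxl2, 55.1% occur in other genes, so its counts are uncertain.

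Basement membrane genes moved in both directions, and 9 of 18 tested members rose and 6 fell, with a median log2 fold change of 0.40. The type IV collagen genes Col4a1 and Col4a2 rose from 228 and 225 to 1693 and 1653 CPM (log2 fold change 2.88, standard error 0.09, adjusted p = 1.81e-09) and from 66.3 and 68.8 to 456 and 443 CPM, and Col4a3 and Col4a4 from 5.01 and 4.8 to 172 and 182 CPM and from 6.64 and 8.67 to 88 and 88.6 CPM. Of the laminin chains, Lamb2 fell from 145 and 165 to 96 and 91.9 CPM, while Lamb1 rose from 0.58 and 1.99 to 40.3 and 38.8 CPM. The rise of Lamb1 rests on an untreated level that differed between its libraries, with a log2 fold change of 4.97 and of 4.30 and 6.07 without single untreated libraries. Nid2, a linker of laminin to type IV collagen, fell from 12.4 and 10.2 to 0.212 and 0.238 CPM (log2 fold change -5.62, standard error 0.30, adjusted p = 6.33e-08). Lama5 and Npnt were not called (adjusted p = 0.126 and 0.811). Of matricellular and elastic fibre genes, 13 of 15 tested members rose and 1 fell, with a median log2 fold change of 1.63. Fbln2, a matrix linker (ENSMUSG00000064080, GRCm38 chromosome 6, 91212455 to 91272540), rose from 25 and 24.4 to 1683 and 1764 CPM (log2 fold change 6.12, standard error 0.12, adjusted p = 1.04e-10). Postn, periostin, rose from 1.11 and 0.586 to 65 and 97.4 CPM, Tnc, tenascin C, from 59.1 and 90.6 to 502 and 516 CPM, and Thbs3 from 24.4 and 23.4 to 77.3 and 70.4 CPM. Tnxb, tenascin X, was the only member of the list called lower, from 87.3 and 94.9 to 9.54 and 12.4 CPM (log2 fold change -3.06, standard error 0.19, adjusted p = 2.19e-07).

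**Figure D3:**
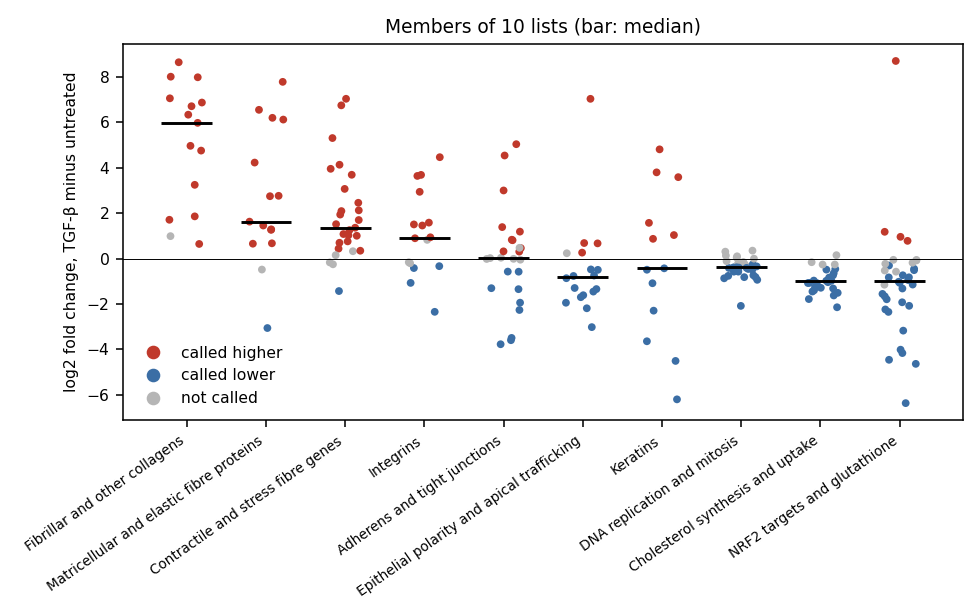
Log2 fold change with TGF-β (y axis) of every tested member of 10 gene lists (x axis), red where called higher, blue where called lower and grey where not called, with a black bar at the median. Collagens sit above 0 with a median of 5.98, contractile genes have a median of 1.36, and polarity, sterol and NRF2 genes have medians of -0.81, -1.01 and -0.98. Values above 5 belong mostly to genes with few untreated counts.

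Proteases that cut matrix followed, with exceptions. Of proteases and their inhibitors, 18 of 23 tested members rose and 3 fell, with a median log2 fold change of 2.00. Mmp14, a membrane-bound collagenase, rose from 39.4 and 45.3 to 157 and 180.2 CPM (log2 fold change 2.00, standard error 0.10, adjusted p = 4.33e-08), the aggrecanase gene Adamts4 from 2.37 and 2.4 to 38.7 and 33.8 CPM, and Adam8 from 23.5 and 18.4 to 89.7 and 90.4 CPM. The cathepsin gene Ctsl rose from 82 and 92.7 to 454 and 467 CPM, with 26.9% of its bases under a gene on the other strand. Mmp9 had 1 count in the untreated libraries together and 11.3 and 7.45 CPM with TGF-β. Mmp13, collagenase 3, fell from 30.6 and 42.4 to 2.17 and 2.68 CPM (log2 fold change -3.91, standard error 0.32, adjusted p = 1.78e-06), as did the inhibitor cystatin C, Cst3, from 177 and 177 to 79 and 81.9 CPM, and tissue plasminogen activator, Plat, from 219 and 244 to 169 and 149 CPM. The urokinase receptor gene Plaur was not called at 150.15 and 143 CPM (adjusted p = 0.601).

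Promoters of a matrix gene that rose, Col6a1, and of a protease gene that fell, Mmp13, are shown because both hold 1 AP-1 site, TGANTCA, in capitals. AP-1 is the dimer of FOS and JUN proteins. Col6a1 is at chr10:76726045-76726294 on the minus strand and Mmp13 at chr9:7272264-7272513 on the plus strand (GRCm38.p6, 250 bases before the RefSeq start).
Col6a1: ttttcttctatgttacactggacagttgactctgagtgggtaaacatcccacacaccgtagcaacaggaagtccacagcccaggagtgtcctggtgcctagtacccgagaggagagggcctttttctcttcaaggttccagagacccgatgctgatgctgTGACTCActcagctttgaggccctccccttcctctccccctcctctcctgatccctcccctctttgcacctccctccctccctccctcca
Mmp13: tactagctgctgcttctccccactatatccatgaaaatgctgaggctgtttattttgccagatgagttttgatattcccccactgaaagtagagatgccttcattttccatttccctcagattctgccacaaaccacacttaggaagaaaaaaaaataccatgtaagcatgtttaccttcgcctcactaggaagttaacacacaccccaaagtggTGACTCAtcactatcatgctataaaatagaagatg
The AP-1 site stood in 4.86% of the 9950 promoters. It stood in 12.3% of those of genes higher by at least 2 on the log2 scale and in 11% of those lower by at least 2. Promoters of both of these sets also had fewer CpG dinucleotides than all promoters, with medians of 7 and 5 against 16. The AP-1 genes Jun and Fosl1, named after their values were seen, fell by 1.37 and 0.63 on the log2 scale. Other FOS and JUN genes are not given here, so these values do not describe the family. The palindrome GTCTAGAC of SMAD proteins stood in 0.191% of all promoters, and in 0 of the 506 of genes higher by at least 2 and 1 of the 462 lower by at least 2.

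Genes of the contractile cytoskeleton rose nearly as a group. Of contractile and stress fibre genes, 22 of 27 tested members rose and 1 fell, with a median log2 fold change of 1.36. Acta2, smooth muscle actin, rose from 0.791 and 0.586 to 73.9 and 76.6 CPM (log2 fold change 6.75, standard error 0.33, adjusted p = 2.92e-08). Tagln, transgelin, rose from 1.74 and 1.82 to 247 and 221 CPM, but 67.9% of its bases lie under a gene on the other strand. Cald1, caldesmon, rose from 839 and 820.2 to 3355 and 3723 CPM (log2 fold change 2.09, standard error 0.11, adjusted p = 4.17e-08), Actn1, which crosslinks stress fibres, from 387 and 337 to 1613 and 1551 CPM, Tpm1, a tropomyosin, from 826 and 736 to 2948 and 3044 CPM, and Cnn2, a calponin, from 94.4 and 89.2 to 298 and 298 CPM. The exception was Mylk, the myosin light chain kinase, which fell from 67.4 and 83.8 to 26.3 and 29.9 CPM (log2 fold change -1.43, standard error 0.14, adjusted p = 1.03e-05). Actn4 and Mrtfb were not called (adjusted p = 0.201 and 0.0717). Genes that control small GTPases of the cytoskeleton did not share this direction, and 7 of 29 tested members rose and 13 fell, with a median log2 fold change of -0.25. The risen share was not far from the 21.3% of all genes. Arhgef26, an exchange factor for RHOG, fell from 199.6 and 183 to 15.5 and 20.1 CPM (log2 fold change -3.43, standard error 0.18, adjusted p = 6.29e-08), with 21.6% opposite-strand overlap, and Arhgef16 and Arhgef28 from 64.3 and 61.1 to 22 and 22.8 CPM and from 78.3 and 97.6 to 34.1 and 36.1 CPM. Cdc42ep3, an effector of CDC42, rose from 9.12 and 10.7 to 69.6 and 67 CPM, and Rhoc from 139 and 130.4 to 244 and 243 CPM. Cdc42 and Rock2 were not called, at 363 and 371 CPM and at 509.5 and 487 CPM.

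The promoters of Cnn2 and Myl7, which both rose, are shown with the CArG box in capitals, the element of serum response factor. Cnn2 is at chr10:79988350-79988599 on the plus strand and Myl7 at chr11:5898783-5899032 on the minus strand (GRCm38.p6, 250 bases before the RefSeq start).
Cnn2: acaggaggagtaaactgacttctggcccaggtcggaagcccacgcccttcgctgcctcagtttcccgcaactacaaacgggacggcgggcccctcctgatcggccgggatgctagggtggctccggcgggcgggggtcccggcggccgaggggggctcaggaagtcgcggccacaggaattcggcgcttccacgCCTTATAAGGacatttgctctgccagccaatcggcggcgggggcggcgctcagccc
Myl7: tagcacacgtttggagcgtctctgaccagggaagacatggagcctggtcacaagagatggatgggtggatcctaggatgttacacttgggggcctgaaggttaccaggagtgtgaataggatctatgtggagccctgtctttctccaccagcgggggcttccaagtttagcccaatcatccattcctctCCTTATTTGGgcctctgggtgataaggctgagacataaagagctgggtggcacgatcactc
The box is CC, 6 bases that are each A or T, and GG. It stood in 1.18% of the 9950 promoters and in 1.78% of the 506 of genes higher by at least 2 on the log2 scale, or 9 genes. Of the 462 of genes lower by at least 2, 1.08% held it, or 5 genes. The TEAD hexamer GGAATG stood in 10.8% of all promoters, in 14.4% of those higher by at least 2 and in 15.2% of those lower by at least 2. The antioxidant response core TGACNNNGC stood in 12.1%, 11.9% and 11% of the same sets. The RefSeq table has no entry for Tagln.

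The share of members called in each list is set in the plot of all 46 lists against 21.3% and 21.2% of all genes called higher and lower. Every count of risen and fallen members in this report is to be read against these shares. They depend on level, since 52.0% of genes with an average log2 CPM over 6 were called, against 42.5% of all. Lists share some genes, and 949 distinct list genes were tested, of which 327 were higher and 355 lower.

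**Figure D4:**
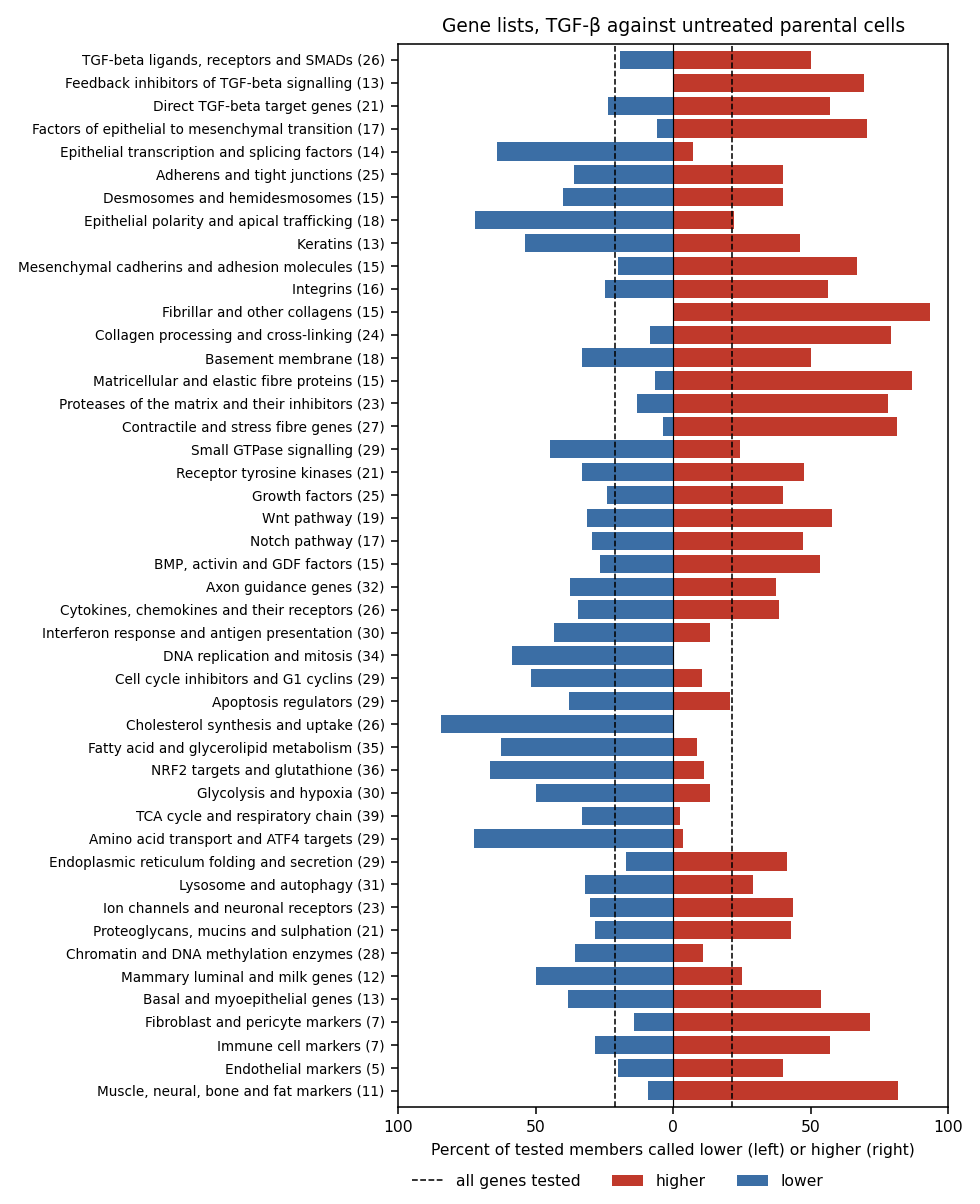
Share of the tested members (number in brackets) of each of 46 gene lists that was called higher (red, to the right) or lower (blue, to the left) with TGF-β, in percent, with dashed lines at 21.3% and 21.2% for all genes tested. Collagen and matricellular lists reach farthest right, and sterol, amino acid and polarity lists farthest left.

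Of receptor tyrosine kinases, 10 of 21 tested members rose and 7 fell, with a median log2 fold change of 0.25. Fgfr2, the epithelial FGF receptor, fell from 147 and 152 to 38.6 and 38.9 CPM (log2 fold change -1.95, standard error 0.09, adjusted p = 1.43e-08), and Erbb3, a neuregulin receptor, from 41.5 and 54.8 to 5.41 and 3.93 CPM, beside the rise of Pdgfrb above. Epha4 fell from 159 and 181 to 87.7 and 95.5 CPM, and Ror1, a receptor for WNT5A, rose from 24.2 and 23.5 to 46.9 and 47.9 CPM. Tyro3, a receptor for GAS6, rose from 1.58 and 1.46 to 11.2 and 10.8 CPM, and Ddr1 and Ephb4 were not called (adjusted p = 0.312 and 0.158). Of growth factors, 10 of 25 tested members rose and 6 fell, with a median log2 fold change of 0.17. Fgf1 fell from 67.9 and 77.9 to 16.5 and 17.8 CPM (log2 fold change -2.09, standard error 0.12, adjusted p = 8.75e-08) and Fgf18 from 33.2 and 30.8 to 8 and 11.1 CPM. Ccn4, a matrix-bound signal, rose from 104 and 126 to 619 and 589 CPM. Vegfa, Hbegf and Nrg1 were not called (adjusted p = 0.655, 0.854 and 0.331).

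Of the Wnt pathway, 11 of 19 tested members rose and 6 fell, with a median log2 fold change of 0.96. Among ligands, Wnt9a rose from 0.685 and 0.761 to 31.8 and 33.7 CPM (log2 fold change 5.49, standard error 0.22, adjusted p = 6.17e-09), Wnt7a from 0.105 and 0.176 to 16.5 and 14.7 CPM, and Wnt4 from 10.9 and 8.9 to 28.5 and 27.3 CPM. Among receptors, Lgr4, a receptor for R-spondins, fell from 112 and 111 to 35.5 and 35.2 CPM, while Lgr6 had 2 counts in the untreated libraries together and 10.9 and 9.65 CPM with TGF-β. Fzd5 fell from 63.5 and 80.4 to 29.6 and 29.3 CPM (17.8% opposite-strand overlap). Lgr4 and Lgr6 thus moved in opposite directions. Of the Notch pathway, 8 of 17 tested members rose and 5 fell, with a median log2 fold change of 0.32. Notch1 fell from 7.91 and 6.5 to 1.32 and 1.25 CPM (log2 fold change -2.48, standard error 0.29, adjusted p = 3.44e-05), while Notch4 rose from 0.632 and 0.586 to 21.1 and 20.4 CPM and Notch2 from 199 and 189 to 288 and 267 CPM. The ligand gene Jag1 rose from 349 and 517 to 892 and 786 CPM, and the target genes Hes1 and Hey1 fell from 153 and 102 to 55.6 and 53.1 CPM and from 12.4 and 11.2 to 3.97 and 3.52 CPM. The Notch genes that fell numbered 3, not 5, without either treated library. Of BMP, activin and GDF factors, 8 of 15 tested members rose and 4 fell, with a median log2 fold change of 0.93. Inhbb rose from 34.8 and 39.4 to 97.3 and 99 CPM, and Bmp7, Gdf15 and the antagonist Bmper fell from 6.27 and 8.43 to 2.91 and 3.1 CPM, from 176 and 231 to 84.3 and 65.3 CPM and from 11.3 and 18.7 to 2.6 and 2.74 CPM.

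Of axon guidance genes, 12 of 32 tested members rose and 12 fell, with a median log2 fold change of 0.01. Nrp1 and Nrp2, co-receptors for semaphorins and VEGF, rose from 66.3 and 72.5 to 246 and 243 CPM and from 99.9 and 92.2 to 419.6 and 433 CPM (log2 fold change 2.15, standard error 0.09, adjusted p = 1.27e-08), and Plxnd1, a semaphorin receptor, from 4.01 and 5.62 to 41.5 and 44.5 CPM. The ligands Sema3e and Sema6a fell from 785 and 851 to 280.3 and 302 CPM and from 63.6 and 74.3 to 9.27 and 9.41 CPM, and Slit3 from 25.7 and 24 to 1.48 and 1.61 CPM. Of cytokines, chemokines and their receptors, 10 of 26 tested members rose and 9 fell, with a median log2 fold change of -0.17. Besides Il33, Ccl20 fell from 88.4 and 137 to 13.9 and 16 CPM (log2 fold change -2.92, standard error 0.20, adjusted p = 3.57e-07) and Il15 from 13.5 and 12.9 to 3.02 and 2.62 CPM. Il11, a cytokine of the IL-6 family, rose from 1.42 and 1.29 to 222 and 189.8 CPM, Lif, of the same family, from 62.8 and 56.5 to 237 and 174 CPM, and the receptor gene Il6ra from 2.06 and 1.52 to 16.4 and 17.2 CPM. Ccl2 was not called, at 454 and 245 CPM without and 324 and 268 CPM with TGF-β (adjusted p = 0.444). Of interferon response and antigen presentation genes, 4 of 30 tested members rose and 13 fell, with a median log2 fold change of -0.42. Ifit2 fell from 145 and 131 to 48.5 and 52.3 CPM (log2 fold change -1.46, standard error 0.10, adjusted p = 3.63e-07), Ifit3 from 5.64 and 6.68 to 0.265 and 0.298 CPM (51.5% shared 50-base words), and H2-K1, a class I heavy chain, from 28.9 and 29.4 to 14.4 and 16.3 CPM. B2m, the class I light chain, rose from 83.8 and 84.8 to 169 and 196 CPM. Without treated library 1 the interferon genes that fell numbered 8 against 13.

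Most cell division genes tested were lower. Of DNA replication and mitosis genes, 0 of 34 tested members rose and 20 fell, with a median log2 fold change of -0.38, and 2 rose when untreated library 1 was left out. Aurkb, a mitotic kinase, fell from 116 and 109 to 63.6 and 59.6 CPM (log2 fold change -0.87, standard error 0.09, adjusted p = 1.22e-05), the spindle kinesin gene Kif11 from 370.4 and 348 to 207 and 217 CPM, Cdk1 from 201 and 195 to 135 and 130.5 CPM, the replication licensing gene Cdt1 from 111 and 91.1 to 56 and 49.6 CPM and the transcription factor gene E2f2 from 21.9 and 12.9 to 4.29 and 3.93 CPM. Each of these falls other than that of E2f2 was under 1 on the log2 scale. Mcm4 and Rrm1 were not called (adjusted p = 0.415 and 0.782). The list summed to 7965 and 7096 CPM in the untreated libraries and 5854 and 5824 CPM in the treated ones. Of cell cycle inhibitors and G1 cyclins, 3 of 29 tested members rose and 15 fell, with a median log2 fold change of -0.36. Ccnd2 and Ccnd3, D-type cyclins, fell from 592 and 910.5 to 310.0 and 303 CPM and from 112 and 105 to 52.8 and 48 CPM, and the antiproliferative gene Btg2 from 275 and 237 to 48.8 and 41.5 CPM (log2 fold change -2.50, standard error 0.11, adjusted p = 1.73e-08). The inhibitor gene Cdkn2c also fell, from 38.4 and 34.3 to 18.7 and 19.7 CPM. Cdkn1a, a known TGF-β target that encodes p21, was not called at 246 and 192 CPM (adjusted p = 0.0671), nor was Myc (adjusted p = 0.875). The members called higher in that list were Mdm2, Trp53 and Cdk4, and the calls of Trp53 and Cdk4 were lost without either treated library and without untreated library 2 (adjusted p from 0.08 to 0.217). Of apoptosis regulators, 6 of 29 tested members rose and 11 fell, with a median log2 fold change of -0.21. The risen share was close to the 21.3% of all genes. Pmaip1, which encodes NOXA, rose from 114 and 107 to 189.9 and 179 CPM, Casp12 from 0.896 and 1.11 to 8.96 and 9.06 CPM, and the survival gene Bcl2l1 fell from 167 and 199 to 117 and 111 CPM. Casp8 was not called (adjusted p = 0.578).

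Sterol genes were the most uniformly lower list. Of cholesterol synthesis and uptake genes, 0 of 26 tested members rose and 22 fell, with a median log2 fold change of -1.01. Hmgcs1, an early enzyme of the mevalonate pathway, fell from 657 and 952 to 173 and 191 CPM (log2 fold change -2.14, standard error 0.16, adjusted p = 9.62e-07), Sqle, squalene epoxidase, from 421 and 479 to 153 and 164 CPM, and the feedback regulator Insig1 from 161 and 229 to 57.9 and 55.3 CPM. Srebf2, the transcription factor of the pathway, fell from 443 and 510.3 to 225 and 226 CPM. Hsd17b7 was not called (adjusted p = 0.321). The list summed to 6683 and 8517 CPM in the untreated libraries and 3418 and 3714 CPM in the treated ones, so the untreated libraries differed from each other but both lay above both treated ones. Of fatty acid and glycerolipid genes, 3 of 35 tested members rose and 22 fell, with a median log2 fold change of -0.76. The desaturase gene Fads2 fell from 1100.3 and 1155 to 474 and 476 CPM (log2 fold change -1.25, standard error 0.08, adjusted p = 2.92e-07), and the elongase genes Elovl5 and Elovl7 from 212 and 234 to 115 and 124 CPM and from 101 and 118 to 48.2 and 47.2 CPM. Fasn and Acly, which make palmitate and its precursor, were not called at 513 and 551 CPM and at 365 and 332 CPM (adjusted p = 0.334 and 0.257). Plin2, a lipid droplet coat protein, rose from 118 and 141 to 521 and 475 CPM (log2 fold change 1.95, standard error 0.10, adjusted p = 4.7e-08), and the lipase gene Mgll from 0.105 and 0.176 to 16.6 and 16.1 CPM. Acly, Fasn and the desaturases therefore did not move alike. Agps, the gene knocked out in the other line, was at 357 and 330 CPM without and 265 and 266 CPM with TGF-β. That is a log2 fold change of -0.37 (adjusted p = 0.0132). The adjusted p was 0.0603 without untreated library 1 and 0.0798 and 0.0706 without treated library 1 and 2, so the call was lost there.

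Of NRF2 targets and glutathione genes, 4 of 36 tested members rose and 24 fell, with a median log2 fold change of -0.98. Gsr, glutathione reductase, fell from 917 and 994 to 313 and 338 CPM (log2 fold change -1.55, standard error 0.09, adjusted p = 9.62e-08), Gss, glutathione synthetase, from 107 and 120.3 to 29.2 and 30.7 CPM, catalase, Cat, from 461 and 452 to 137 and 152 CPM, and the epoxide hydrolase gene Ephx1 from 270.0 and 309.6 to 52.3 and 61.7 CPM. Me1, malic enzyme, fell from 692 and 669 to 198 and 195 CPM (29.7% shared 50-base words). Txnrd1 and Txn1 were not called (adjusted p = 0.576 and 0.711), and the peroxidase gene Gpx1 rose from 73.9 and 66.5 to 157 and 161 CPM. The untreated libraries differed for some members. Nqo1 stood at 37.2 and 88.7 CPM without and 4.19 and 3.57 CPM with TGF-β, and Slc7a11, the cystine transporter, at 39.4 and 131 CPM without and 21 and 19.2 CPM with TGF-β. Of amino acid transport and ATF4 targets, 1 of 29 tested members rose and 21 fell, with a median log2 fold change of -0.59, and the count that fell was 13 without untreated library 2 or treated library 2. Slc1a5, a glutamine transporter, fell from 119.6 and 164 to 49.2 and 45.9 CPM (log2 fold change -1.57, standard error 0.14, adjusted p = 4.49e-06), and Psat1, of serine synthesis, from 842 and 968 to 484 and 479 CPM. The list summed to 5389 and 7051 CPM in the untreated libraries and 4084 and 3836 CPM in the treated ones. What set the untreated libraries apart from each other was not tested.

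Of glycolysis and hypoxia genes, 4 of 30 tested members rose and 15 fell, with a median log2 fold change of -0.41. Slc2a1, the glucose transporter GLUT1, fell from 289 and 321 to 94.5 and 97.4 CPM (log2 fold change -1.67, standard error 0.12, adjusted p = 6.43e-07), Slc16a1, a lactate transporter, from 433 and 391 to 121 and 122 CPM, and Egln3, an oxygen sensor, from 155 and 171 to 25.3 and 29 CPM. Hk2, hexokinase, rose from 141 and 136 to 365 and 328 CPM, and Egln1 from 76.4 and 62.6 to 142 and 133 CPM. TCA cycle and respiratory chain genes were called in 35.9% of cases, below the 42.5% of all genes, and 1 of 39 tested members rose and 13 fell, with a median log2 fold change of -0.18. The exception in size was Idh1, cytosolic isocitrate dehydrogenase (ENSMUSG00000025950, GRCm38 chromosome 1, 65158616 to 65186500), which fell from 348 and 475 to 41.1 and 51.6 CPM (log2 fold change -3.15, standard error 0.19, adjusted p = 1.52e-07), while the mitochondrial Idh2 fell by 0.64 on the log2 scale. Cs and Atp5b were not called (adjusted p = 0.124 and 0.823). The gene called higher was Idh3a, by 0.24 on the log2 scale, and its call was lost when any 1 of the 4 parental libraries was left out (adjusted p from 0.0853 to 0.175). The TCA and respiratory genes that fell numbered 7 and 6 without treated library 1 and 2, against 13. Of endoplasmic reticulum genes, 12 of 29 tested members rose and 5 fell, with a median log2 fold change of 0.22, with 7 risen without untreated library 1 and 6 without treated library 2. Pdia3 rose from 985 and 993 to 1438 and 1502 CPM, and Tram2, a translocon partner in collagen synthesis, from 22.8 and 19 to 58.5 and 51.4 CPM. Herpud1, of protein quality control, fell from 215 and 197 to 72.1 and 79.3 CPM (log2 fold change -1.44, standard error 0.16, adjusted p = 1.75e-05), and the chaperone gene Hspa5 was not called (adjusted p = 0.737). Of lysosome and autophagy genes, 9 of 31 tested members rose and 10 fell, with a median log2 fold change of 0.00, with 6 fallen without untreated library 2 or treated library 1. Ctsh, cathepsin H, fell from 331 and 291 to 18 and 21.2 CPM (log2 fold change -3.99, standard error 0.15, adjusted p = 4.2e-09), and Lipa, the acid lipase, from 215 and 236 to 95.6 and 101 CPM. The membrane protein gene Lamp2 and Psap, saposins, rose from 307 and 322 to 505 and 543 CPM and from 377 and 399 to 663 and 625 CPM.

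Of ion channels and neuronal receptors, 10 of 23 tested members rose and 7 fell, with a median log2 fold change of 0.31. Aqp1, a water channel (ENSMUSG00000004655, GRCm38 chromosome 6, 55336432 to 55348555), fell from 91.6 and 114 to 2.07 and 2.14 CPM (log2 fold change -5.60, standard error 0.19, adjusted p = 1.87e-09), and Scnn1a, of the epithelial sodium channel, from 42.2 and 39 to 7.31 and 7.81 CPM. Ano1 was not called, at a mean of 286 CPM without and 292 CPM with TGF-β (adjusted p = 0.852). Of proteoglycan, mucin and sulphation genes, 9 of 21 tested members rose and 6 fell, with a median log2 fold change of 0.46. Ext1, which polymerises heparan sulfate, rose from 144 and 142 to 542 and 561 CPM (log2 fold change 1.94, standard error 0.08, adjusted p = 1.12e-08), Gpc1, glypican 1, from 33.4 and 32.1 to 253 and 265 CPM (18.9% opposite-strand overlap), and Chsy1, of chondroitin synthesis, from 29.988 and 30.2 to 84.3 and 80.1 CPM. Sdc4 fell from 423 and 352 to 270.3 and 244 CPM, and Sdc1 was not called (adjusted p = 0.308). Chromatin and DNA methylation enzymes were called in 46.4% of cases, close to all genes, and 3 of 28 tested members rose and 10 fell, with a median log2 fold change of -0.28, with 7 risen under upper quartile scaling. Setd7, a lysine methyltransferase, rose from 137 and 205 to 548 and 566 CPM (log2 fold change 1.70, standard error 0.19, adjusted p = 1.83e-05), and the demethylase gene Kdm7a fell from 87 and 112 to 33.5 and 33.6 CPM.

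Markers of other cell types were followed because several of the genes above are best known from them. Of 24 immune markers, 12 had no count in any parental library, and Ptprc, which encodes CD45, had 1 and 0 counts without and 0 and 5 with TGF-β. The 7 tested immune markers summed to 70.9 and 63.9 CPM in the untreated libraries and 105 and 101 CPM in the treated ones, with 4 risen and 2 fallen. Tmem119, which rose from 4 and 5 to 839 and 665 counts, carried the higher treated sums. The other tested immune markers together were not higher with TGF-β. Of the 18 endothelial markers 5 had no count and 5 were tested, with 2 risen and 1 fallen, summing to 23.5 and 21.3 CPM in the untreated libraries and 103 and 108 CPM in the treated ones. Tek, Tie1, Emcn, Cldn5 and Kdr had 0 to 3 counts in a library, while Cdh5 rose as given above and made up most of the treated sums. Of 20 fibroblast and pericyte markers 5 had no count and 7 were tested, with 5 risen and 1 fallen, summing to 109.9 and 105 CPM in the untreated libraries and 246 and 217 CPM in the treated ones. Pdgfrb went from 4 and 6 to 1679 and 1344 counts and Mcam from 15 and 15 to 1613 and 1280. The other tested members of this list together were lower with TGF-β. Dcn, Thy1 and Fap had 0 counts in all 4 libraries and Lum had at most 1, and Ly6a fell from 72.8 and 82 to 16 and 12.7 CPM. Of 29 muscle, neural, bone and fat markers 9 had no count and 11 were tested, with 9 risen and 1 fallen, summing to 185 and 200.3 CPM in the untreated libraries and 811 and 782 CPM in the treated ones. Ncam1 and Chrna1, given above, made up most of these treated sums. Myod1, Myog and Sox2 had 0 counts, whereas Nes rose from 53.2 and 39.2 to 136 and 132 CPM and Tubb3 from 0.527 and 0.586 to 11.1 and 10.1 CPM. Of 20 basal and myoepithelial genes 13 were tested, with 7 risen and 5 fallen, and of 29 luminal and milk genes 12 were tested, with 3 risen and 6 fallen. The basal genes that fell numbered 3 without untreated library 2 and 2 without treated library 1. The milk fat globule gene Mfge8 rose from 142 and 155 to 283 and 273 CPM. Other markers of these lists were not near 0. Csf1r had 388 to 593 counts in a library, Cd14 492 to 680, Flt1 175 to 444 and S100a4 289 to 918. The part that other cell types had in these changes was not tested.

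A set of genes went from near silence to clear expression. With TGF-β 71 genes had at least 100 counts over the treated libraries against 3 or fewer over the untreated ones, and 27 genes showed the reverse. Among the highest risen were Ces1g, Ccn5, Megf10, Odaph, Prss46, Has2 and Lgr6. Ces1g, a carboxylesterase, had 3 counts without and 1341 with TGF-β, and Ccn5, a matricellular growth regulator, 3 and 1025. Has2, a hyaluronan synthase, had 3 and 376. Of the 71, 14 had 0 counts in both untreated libraries, among them the actin bundling gene Fscn1 (166 counts with TGF-β, at least 54.7-fold higher against the floor of 3 counts over the untreated libraries). Among the highest of the genes lost were Sftpd, Gm609, Gsta3, Ppp1r42, Agt, Vnn3 and Krt4. Sftpd, surfactant protein D, had 440 counts without and 2 with TGF-β, Gsta3, a glutathione transferase, 266 and 3, and Agt, angiotensinogen, 239 and 3. These are counts of reads and carry counting error only, beside the spread between libraries.

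The same treatment of Agps knockout cells gave the background for these values. There 6064 genes were called (41.4%). A test of the difference between the responses of the lines called 352 of 14641 genes (2.4%), 204 of them (1.39%) with a difference of at least 1 on the log2 scale. Among the 6228 genes called in parental cells, 292 had a called difference, toward a smaller change in the knockout in 161 and a larger one in 131. In 28 of the genes with a called difference both lines were called in opposite directions. Without parental treated library 1 or 2 the called differences numbered 120 and 138, so their count rests on these libraries.

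The 10 largest differences given first here are those among genes with an average log2 CPM of 3 or more in the parental libraries. Their difference was also called and at least 1 on the log2 scale. Ppbp, a platelet chemokine, rose from 16.7 and 13.5 to 57.8 and 51.1 CPM in parental cells (log2 fold change 1.85) and went from 2.97 to 0.417 CPM on average in the knockout, a difference (knockout minus parental) of -4.64 (standard error 0.37, adjusted p = 0.000134). Fam198b rose from 1.32 and 2.4 to 22.8 and 20.8 CPM and had a log2 fold change of -0.22 in the knockout. Megf6 rose from 1.16 and 0.937 to 150.03 and 135 CPM (log2 fold change 7.07, against 3.96 in the knockout). Ugt2b36, a glucuronosyltransferase, and Aldh1a1, a retinaldehyde dehydrogenase, fell less in parental than in knockout cells, at -5.16 against -9.09 and -1.90 against -5.07. Ddc, aromatic amino acid decarboxylase, fell more in parental cells, at -5.09 against -1.77. F13a1 and Cd93 rose less in parental cells, with log2 fold changes of 4.71 (5.42 without untreated library 1) against 8.71 and 3.96 against 7.37. Cbx7 and Slc13a2os were not called in parental cells (adjusted p = 0.0866 and 0.0972), and their log2 fold changes in the knockout were 2.81 and -2.91. Cbx7 was near the floor in the knockout, at 0.118 CPM on average without and 0.866 CPM with TGF-β. In parental cells it was at 8.70 and 9.78 CPM without and 7.37 and 6.32 CPM with TGF-β. Its difference thus rests on few knockout counts. Among genes described above, the rise of Col4a3 and Col4a4 was larger in parental cells, with differences of -2.89 and -2.55, and the fall of Notch1 was smaller there, with a difference of -3.09.

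**Figure D5:**
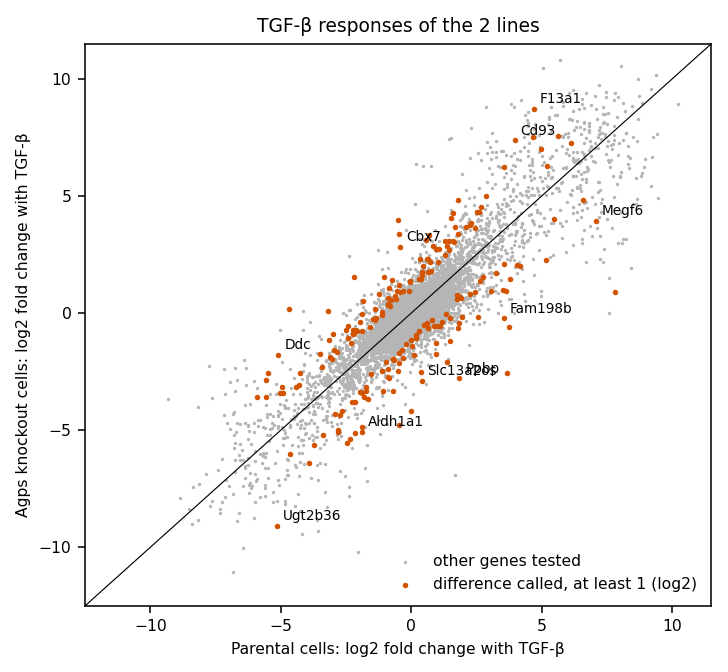
Log2 fold change with TGF-β in Agps knockout cells (y axis) against that in parental cells (x axis) for the 14641 genes tested, with the 204 genes whose difference was called and at least 1 on the log2 scale in orange and the line of equal change in black. Most genes lie near the line, and Ppbp, Fam198b, Ddc and Cbx7 lie far from it.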

How the data were processed

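Per the submitters' processing notes, STAR 2.7.1a, featureCounts 1.6.2 and the genome GRCm38 (mm10) were used. The deposited files hold raw counts for 55450 gene identifiers. The sources used here do not give the annotation release, strandedness or filters. A deposited normalized table was not used. Low genes were removed by filterByExpr at a minimum count of 10, and the rest fitted over all 8 libraries with edgeR 4.0.16 (quasi-likelihood test, 1 mean per group, TMM scaling, R 4.3.3), leaving 4 residual degrees of freedom. P-values were adjusted by Benjamini-Hochberg over the 14641 genes, and calls used an adjusted p under 0.05. On simulated counts 87% of changes of 1 and 96% of changes of 2 on the log2 scale were recovered. In that run 100 genes were changed by each size, among 13622 genes. All changed genes were above 1 CPM. Of its calls, 12 (6.15%) were of unchanged genes. With 42.5% of genes called in the real libraries, the run differs from them and does not give the error rate of the calls here. Levels are CPM on the scaled totals, given for both untreated and then both treated libraries. Where a gene that was not called has only 2 values, they are the untreated mean and the treated mean, unless the sentence names the libraries. Standard errors derive from the F statistic.

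The 46 gene lists and the genes compared were chosen with earlier results of these data known. Named genes were the 15 largest rises and falls without overlap of the groups and with an average log2 CPM of 3 or more, up to 6 called members per list by p with up to 3 moving against it and up to 2 uncalled, switched genes, the 10 most abundant, the 10 largest called differences between lines at an average log2 CPM of 3 or more, and Agps, Fn1, Cdh1, Vim, Cdh2, Actb and Gapdh. Tgfbr1, Smad7, Snai1, Col1a2, Serpinh1, Jun, Fosl1, Nqo1, Slc7a11, Fscn1 and the kidney and mammary genes were named after their values were seen. Some genes that this rule names are not reported here. Promoters are from RefSeq, GRCm38.p6, and overlap and shared 50-base words from GENCODE M21 transcripts. Some values above 10% are not given beside the gene. Opposite-strand overlap was 26.1% for Pdgfa, 25.0% for Ppib, 19.7% for Cdk4, 17.4% for Slc13a2os, 15.4% for Gss, 15.1% for Csf1r and 12.1% for Hmgcs1. Shared 50-base words were 46.7% for S100a4, 11.3% for Actb, 11.3% for Ly6a and 10.5% for Krt14. S100a4 also had 51.7% overlap on the same strand. Alternatives were RLE and upper quartile scaling, DESeq2 1.42.0, other filters, parental libraries alone, a replicate block and each parental library left out. Samples with the same replicate number did not share a stated source, so the fit had no block.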

Additional observations from a re-analysis of the deposited data

Results flagged for a closer look

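For 38 of the 415 named genes the TGF-β responses of parental and knockout cells differed by at least 1 on the log2 scale. The difference was called in edgeR's test of the difference. Among all genes tested, 204 of 14641 (1.39%) had such a difference. Some named genes were chosen as the largest called differences between lines in this same test. Part of the 38 was thus fixed by that choice, so the count cannot be compared with the share of all genes. The values below are knockout minus parental log2 fold changes. They are grouped as in the report.

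Among matrix, adhesion and protease genes, Col4a3 (-2.89), Col4a4 (-2.55), Mcam (-1.77) and Tnc (-1.21) were below 0. Col6a1 (2.05), Adam8 (1.56), Plat (1.5), Fbln2 (1.14) and Ltbp1 (1.08) were above 0.

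For growth factors, receptors and signals the values were -3.09 for Notch1, -1.97 for Fzd1, -1.69 for Wnt4, -1.56 for Btc, -1.54 for Fst, -1.47 for Wnt9a, -1.41 for Fgf18 and -1.24 for Nrg1. They were 2.13 for Tyro3, 1.76 for Bmper and 1.69 for Areg.

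For chemokines, immune and surface genes they were -4.64 for Ppbp, -1.67 for Csf1r, -1.38 for Ccl20, 3.99 for F13a1, 3.41 for Cd93 and 1.39 for Ly6a. The epithelial genes Perp, Muc1 and Myo5b had -1.34, 1.05 and 1.33.

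The remaining genes were Ugt2b36 (-3.93), Fam198b (-3.79), Slc13a2os (-3.31), Aldh1a1 (-3.18), Megf6 (-3.12), Alpl (-2.76), Ddc (3.32), Cbx7 (3.24) and Ddit4 (1.40). The value of Cbx7 rests on knockout levels near the floor, at 0.118 CPM on average without and 0.866 CPM with TGF-β.

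The knockout line differs from the parental line by more than its treatment, and whether it is 1 clone is not given in the labels, so the gene and the line cannot be told apart.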

How the results depend on the processing

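The parental counts stayed within 1.5 times under every alternative run, from 4466 to 6864 called genes against 6228. Upper quartile scaling gave 3448 higher and 2829 lower (54.9% higher against 50.1%), DESeq2 called 5462 genes, and leaving out single parental libraries gave 4466 to 5678, the lowest without treated replicate 1. No shared call changed sign, and 0 of the 415 named genes reversed. The count of genes that differed between lines, 352, was less stable: 855 without the count filter and 120 to 389 when single parental libraries were left out. With at least 1 on the log2 scale it was 204, 421 without the filter and 103 to 255. The cause was not tested. Untreated genes at a few counts limit fold changes to levels.

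With the replicate number as a block 6864 parental genes were called, 6224 of them shared with the 6228, and 679 differences between lines (306 of at least 1 on the log2 scale). The labels do not say that the numbers pair libraries. Replicate 1 minus replicate 2 correlated across genes at 0.18 between untreated and treated parental cells, 0.534 between both untreated groups, 0.254 within the knockout line and 0.0044 between both treated groups, and with 2 numbers the data do not settle a pairing. Under the block no call on a named gene was lost, and 10 uncalled ones became called.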

Other observations

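Ermp1 and Il33 are near each other on chromosome 19 (GRCm38), at 29608214 to 29648415 and 29925114 to 29960718, with Mlana, 9930021J03Rik and Ranbp6 between them in the annotation. Of these 3, Mlana and 9930021J03Rik were called lower as well, by less than Ermp1 and Il33. Mean CPM went from 808 to 608 for 9930021J03Rik (log2 fold change -0.41) and from 288 to 283 for Ranbp6, which was not called (adjusted p = 0.851). On the other side of Ermp1, Ric1 was at 571 and 631 CPM (adjusted p = 0.384), and Jak2 rose from 716 to 1170.0 CPM. Mlana, a melanocyte gene, was low in both groups, at 1.92 and 0.288 CPM (log2 fold change -2.73, adjusted p = 0.00164). In knockout cells Ermp1 had a log2 fold change of -4.81 and Il33 of -4.39, so the pattern was present in both lines. These genes were looked up after their values were seen, and no test of the region was made.

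The genes known from kidney and other epithelia that were listed after the parental values were seen were also expressed in the knockout line. Mean CPM there went from 382 to 155 for Pax2, from 22.4 to 1.08 for Pax8, from 180 to 125 for Hnf4a and from 134 to 43.9 for Cdh16. Epcam, Foxa1, Pgr, Csn2 and Wap had 0 counts in all 4 knockout libraries too. Within the parental line Lrp2 and Cubn, endocytic receptors of the proximal tubule, were called higher with TGF-β, from 0.474 and 1.17 to 10.5 and 9.59 CPM and from 6.90 and 7.2 to 15.2 and 16.8 CPM, while Aqp1 fell (log2 fold change -5.60). Genes of that list thus moved in both directions.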
